A study of Sus scrofa with 21 samples.

Results

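The comparison described here set the testis transcriptome of 8 Duroc boars against that of 13 Landrace boars, which together make up the 21 count files used here. The study also lists the names L11, L14 and D8, which have no count file of their own here. Its read depths for L11 and L14 equal those of L2 and L7, and whether these names are further boars was not tested. Members were chosen by the breed given in the labels, with each library used once and whatever its sperm motility group. The study collected testis tissue at slaughter from purebred Duroc and Norwegian Landrace boars (Sus scrofa) kept for artificial insemination at a single station. Its own contrasts asked which transcripts differ between boars of high and low sperm hyperactivity, the vigorous whip-like swimming that sperm adopt before fertilization. The 13 Landrace boars comprised 7 labelled low and 6 labelled high, 8 of them with a label for the day of ejaculation, and the 8 Duroc boars comprised 5 labelled high and 3 labelled low. The labels and the study's own listing of the boars give opposite hyperactivity groups for most Duroc boars by name, so the label entered only an alternative fit. No treatment, age or batch is given in the labels, and breed cannot be told apart from anything else that differed between the breeds, such as family, age at slaughter or sequencing run.

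Testis tissue mixes germ cells at every step from spermatogonium to elongated spermatid with Sertoli cells, which nurse them, Leydig cells, which make androgens, and the muscle, vessel and immune cells of the wall and interstitium. Boar Leydig cells are known for a very high output of androgens, estrogens and the pheromone steroid androstenone. Duroc pigs are red and Landrace pigs are white, and the white coat of European breeds traces to duplicated and altered alleles of KIT, a receptor that spermatogonia also use. The pig reference genome to which the reads were mapped, Sscrofa11.1, was built from a Duroc animal, and the effect of that on reads from Landrace boars was not tested. In bulk tissue, fewer cells of a type and less RNA per cell cannot be told apart.

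Counts in genes ran from 41358671 to 125576407 per Duroc library and from 47988011 to 97059970 per Landrace library. The breeds did not differ beyond their spread in this depth (two-sided exact permutation p = 0.749), in the share of reads outside genes (p = 0.896), in the share mapped to several places (p = 0.611) or in the share from mitochondrial genes (p = 0.675). Spermatid markers, 16 of them tested, summed to 12205 to 15680 CPM in Duroc and to 7610 to 16522 CPM in Landrace, so transcripts of late germ cells were abundant in every library. CPM is the usual depth-scaled read count of a gene, here also scaled for library composition. The Sertoli cell hormone gene AMH, the spermatogonial gene NANOS2 and the globin gene HBM were listed at 0 in all 21 libraries.

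The libraries separated by breed on the second of the leading axes of variation but not on the first. Multidimensional scaling placed the Duroc boars between −1.08 and −0.37 on dimension 2 (mean −0.74 ± 0.25, SD, n = 8) and the Landrace boars between 0.04 and 1.07 (mean 0.46 ± 0.27, SD, n = 13). The 2 ranges did not overlap (exact permutation p = 4.91e-06, two-sided, the smallest that 203490 choices of 8 from 21 libraries can give). On dimension 1, which carried 22.4% of the variance against 17% for dimension 2, the Duroc boars ran from −0.66 to 1.37 and the Landrace boars from −1.31 to 1.25 (exact permutation p = 0.172). Clustering into 2 groups did not divide the breeds either, since 1 cluster held 4 Duroc and 5 Landrace boars and the other 4 Duroc and 8 Landrace boars. Without L8, the widest breed difference was 0.94, lay on dimension 1, and the breeds overlapped (exact permutation p = 0.00305). The breeds also overlapped on dimension 2 without L13, with a difference of 1.09, and without D1, with a difference of 1.11.

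**Figure D1:**
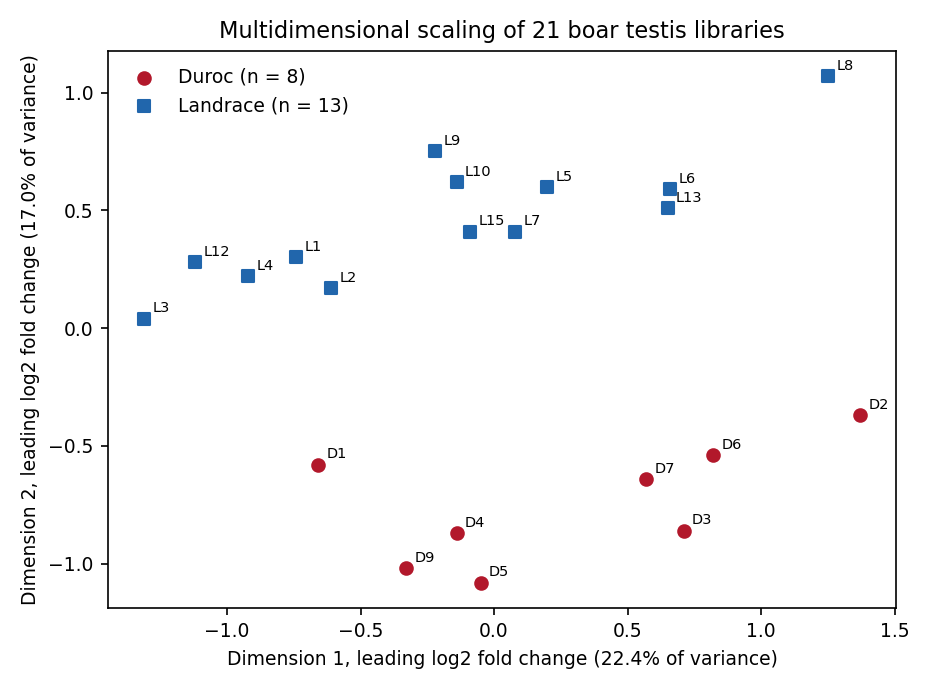
Multidimensional scaling of the 21 libraries, with leading log2 fold change on both axes, Duroc boars as red circles and Landrace boars as blue squares, each named by its label. All 8 Duroc boars lie at or below −0.37 on dimension 2 and all 13 Landrace boars at or above 0.04, while both breeds span most of dimension 1.

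Of 13126 genes tested, 378 (2.88%) differed between the breeds at an adjusted p under 0.05 (quasi-likelihood test of edgeR). The higher breed was Duroc for 177 genes (1.35% of tested genes) and Landrace for 201 (1.53%). The log2 fold changes of the differing genes, always given as Duroc over Landrace, ran from −3.85 to 6.38 with a median size of 0.84, and the median over all tested genes was −0.01. A change of at least 1 on the log2 scale was met by 133 of them (1.01%), with 69 higher and 64 lower. In 39 genes (0.297% of tested genes) every Duroc boar lay on 1 side of every Landrace boar, and 37 of these 39 also passed the test, with 22 higher and 15 lower in Duroc. Symbols were available for 294 of the 378 genes, and the other 84 are not described by name.

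**Figure D2:**
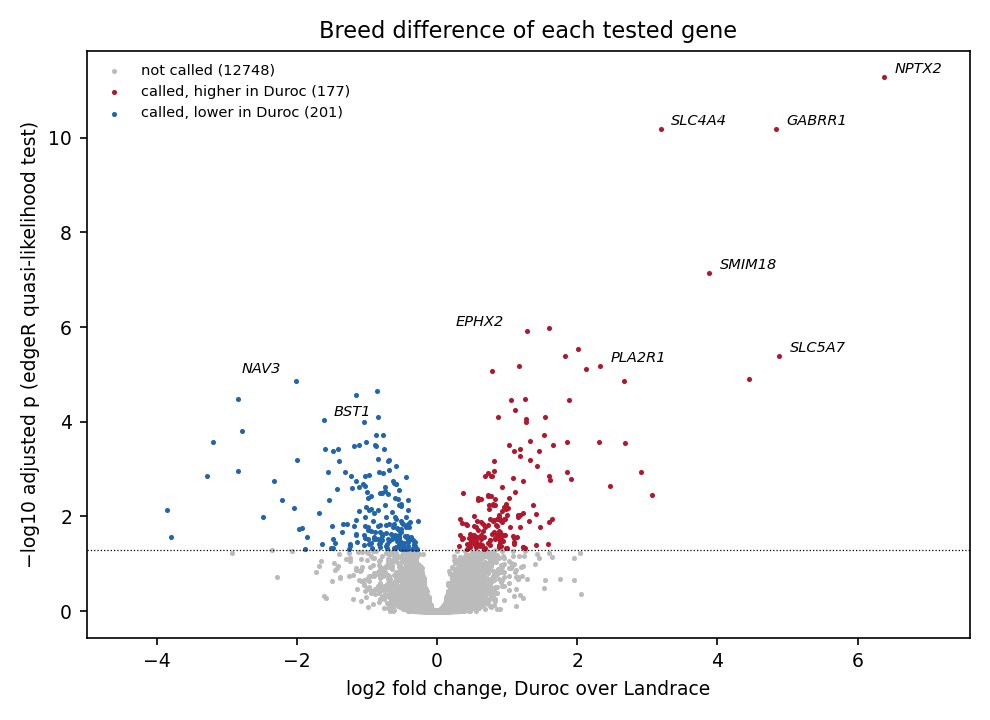
Each of the 13126 tested genes by its log2 fold change, Duroc over Landrace (horizontal axis), and the −log10 of its adjusted p in edgeR's quasi-likelihood test (vertical axis). The dotted line marks the threshold, red points are the 177 genes higher in Duroc and blue points the 201 lower. Some genes are named, and NPTX2, at a log2 fold change of 6.38, stands farthest from the threshold.

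Among genes without overlap between the breeds, NPTX2, SLC5A7, GABRR1, SMIM18 and SLC4A4 were the named genes with the largest increases in Duroc. NPTX2 (ENSSSCG00000007603) encodes neuronal pentraxin 2, a secreted protein that gathers receptors at synapses (chromosome 3, 5720686 to 5732458, RefSeq annotation of Sscrofa11.1). Its level in Duroc was 3.71 CPM at the lowest, 9.94 at the median and 16.2 at the highest, against 0.0122, 0.128 and 0.289 CPM in Landrace. The lowest Duroc boar, D7, therefore stood well above the highest Landrace boar, L4. In reads, NPTX2 was counted 232 to 1141 times in Duroc libraries and 1 to 17 times in Landrace libraries. The log2 fold change was 6.38 ± 0.33 (SE, adjusted p = 5.33e-12 in edgeR's quasi-likelihood test). NPTX2, GABRR1 and SMIM18 were under 1 CPM in all 13 Landrace boars and SLC5A7 in 12 of them, so these 4 genes met the filter of 1 CPM in 8 libraries through the Duroc boars, and a gene that enters in this way had to differ. Without a CPM filter their log2 fold changes were 6.36 for NPTX2, 4.83 for GABRR1, 3.87 for SMIM18 and 4.87 for SLC5A7.

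GABRR1, a subunit of ligand-gated chloride channels opened by GABA, ranged from 5.67 to 14.1 CPM in Duroc with a median of 7.15, and from 0.12 to 0.784 CPM in Landrace with a median of 0.274. GABRR1 thus had a log2 fold change of 4.84 ± 0.29 (SE, adjusted p = 6.61e-11), and no boar of either breed entered the other's range. SLC5A7 is the high-affinity choline transporter of cholinergic nerve endings. It varied widely among Duroc boars, from 1.79 CPM in D1 over a median of 6.16 to 34.4 CPM in D3, but every Landrace boar lay lower, between 0.0906 and 1.09 CPM with a median of 0.282. Its log2 fold change was 4.88 ± 0.53 (SE, adjusted p = 4.10e-06).

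SLC4A4 (ENSSSCG00000008943) encodes an electrogenic sodium bicarbonate cotransporter and lies on chromosome 8, 67768955 to 68177213. Its level was 16.1 CPM at the lowest, 22.6 at the median and 39.8 at the highest in Duroc, and 2, 2.39 and 5.88 CPM in Landrace. Among Landrace boars, 12 of 13 lay at or below 3.2 CPM and only L13 reached 5.88. Between breeds the log2 fold change was 3.19 ± 0.19 (SE, adjusted p = 6.61e-11). A second bicarbonate transporter, SLC4A1, the anion exchanger of the red cell membrane, was the only gene counted at least 10 times in every library of one breed and at most 3 times in every library of the other. It gave 15 to 145 reads in Duroc with a median of 41.5 and 0 to 3 reads in Landrace, too low in CPM to enter the test. The 6 red cell markers matched to an identifier include SLC4A1 itself, and 2 of them were tested. Together the 6 summed to 3.7 to 10.1 CPM in Duroc and 3.25 to 22.1 CPM in Landrace. No gene met the same criterion in the Landrace direction.

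Among the other genes higher in every Duroc boar was PLA2R1, the receptor of secreted phospholipase A2, at 12.3 to 25.1 CPM against 1.31 to 9.26 CPM in Landrace (log2 fold change 2.32 ± 0.26, SE). EPHX2, the soluble epoxide hydrolase that turns fatty acid epoxides into diols, ran from 41.9 CPM over a median of 53.5 to 65 CPM in Duroc. In Landrace it ran from 15.6 over 20.7 to 39.1 CPM, where the highest boar was again L13 (log2 fold change 1.28 ± 0.13, SE, adjusted p = 1.19e-06). MRPL30, a protein of the large mitochondrial ribosomal subunit, ran from 32.8 to 70.8 CPM in Duroc and from 19.3 to 30.4 CPM in Landrace (log2 fold change 1.17 ± 0.13, SE, adjusted p = 6.58e-06). SMIM18, a small membrane protein, was higher by 3.88 on the log2 scale at 1.03 to 2.97 CPM in Duroc. MTCL3, of a microtubule crosslinking family, was higher by 1.88, the transgelin TAGLN3 by 1.33 and the calponin CNN2 by 1.27, and the breeds did not overlap in any of them.

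The named genes lower in every Duroc boar had log2 fold changes from −2.02 to −0.60. NAV3 (ENSSSCG00000029249), neuron navigator 3, a protein that tracks growing microtubule ends, lies on chromosome 5, 103013798 to 103863222. Its level in Duroc was 5.25 CPM at the lowest, 9.26 at the median and 20.4 at the highest, against 21.7, 47.3 and 60 CPM in Landrace. The nearest boars, D1 and L6, were 20.4 and 21.7 CPM, so the ranges only just separated. NAV3 had a log2 fold change of −2.02 ± 0.24 (SE, adjusted p = 1.38e-05).

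ENPP6, a phosphodiesterase that releases phosphocholine from choline lipids, ran from 2.15 over a median of 6.05 to 9.36 CPM in Duroc and from 12.1 over 15.5 to 23.5 CPM in Landrace. ENPP6 had a log2 fold change of −1.48 ± 0.23 (SE, adjusted p = 4.11e-04). BST1, a cell surface enzyme that uses NAD, had a log2 fold change of −1.62, and GKN1, a gastrokine first described in stomach, −1.41. Both were low in CPM, with Duroc maxima of 1.28 and 1.6. MEOX2, a homeobox transcription factor of muscle and vessels, differed by −0.87, C2orf72 by −0.78 and DTNBP1, a subunit of a complex that forms lysosome-related organelles, by −0.60.

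NRIP1, PDE4DIP and DNAH11 were also lower in every Duroc boar. NRIP1 encodes a corepressor of nuclear hormone receptors, including the estrogen and androgen receptors. It ran from 31 over a median of 39.1 to 52.7 CPM in Duroc and from 59 over 68.8 to 98.7 CPM in Landrace (log2 fold change −0.85 ± 0.12, SE, adjusted p = 8.02e-05). PDE4DIP, or myomegalin, a centrosome and Golgi protein, ran from 20.4 to 34.6 CPM in Duroc and from 41.1 to 63.4 CPM in Landrace, with a log2 fold change of −0.86 ± 0.11 (SE, adjusted p = 2.26e-05). DNAH11 encodes a heavy chain of the outer dynein arms that drive cilia. Its ranges were 3.61 to 6.1 CPM and 6.6 to 13.8 CPM, again without overlap (log2 fold change −1.15 ± 0.14, SE, adjusted p = 2.68e-05). Of the genes named so far, the calls for DTNBP1 and C2orf72 were lost when the Duroc boars were set against the 6 Landrace boars labelled high alone (adjusted p = 0.0953 and 0.124), and that for DTNBP1 also against the 8 Landrace boars with a day 0 label (adjusted p = 0.0512).

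**Figure D3:**
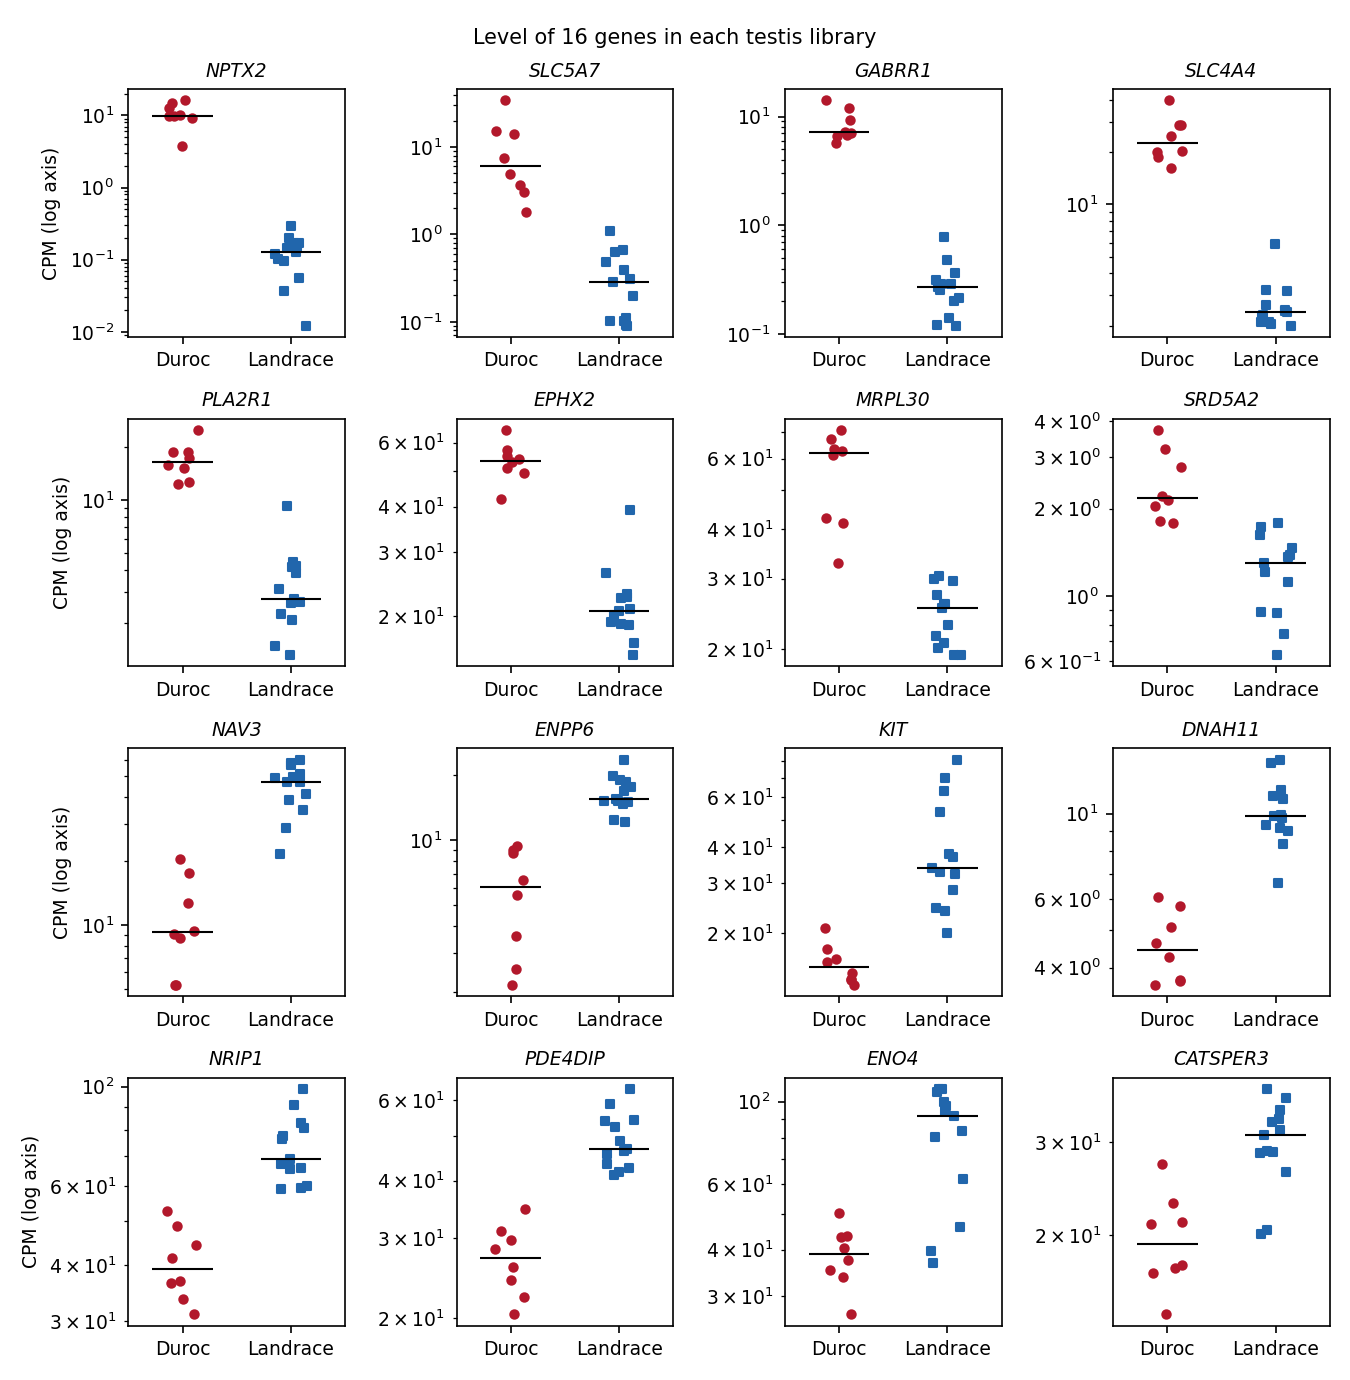
CPM of 16 genes on log axes, with 1 point for each boar (8 Duroc, 13 Landrace) and a bar at the breed's median. The breeds do not overlap in the panels from NPTX2 to ENPP6 nor in DNAH11, NRIP1 and PDE4DIP, while KIT, ENO4 and CATSPER3 show overlapping ranges.

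KIT was the single breed locus for coat colour or production that differed, out of 14 tested on a list of such loci, where the share over all tested genes was 2.88%. A count of 1 in a list of this length is near that share. It (ENSSSCG00000008842) lies on chromosome 8, 41402334 to 41492306. Duroc boars ran from 13.2 over a median of 15.2 to 20.8 CPM, and Landrace boars from 20.1 over 33.7 to 81.1 CPM. Only D1, at 20.8 CPM, and L5, at 20.1 CPM, crossed. KIT had a log2 fold change of −1.40 ± 0.23 (SE, adjusted p = 6.78e-04). The Landrace boars were much more spread, with an SD of 19.3 CPM against 2.55 CPM in Duroc, and those labelled low averaged 49.2 ± 23.6 CPM (SD, n = 7) while those labelled high averaged 32.3 ± 6.4 CPM (SD, n = 6). KIT alleles and copy numbers of these boars were not analysed here.

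The other 13 tested breed loci did not pass, and the median log2 fold change of the list was 0.05. TYR, the pigment enzyme tyrosinase, was at 29.9 ± 4.21 CPM in Duroc (SD, n = 8) and 29.4 ± 4.52 CPM in Landrace (SD, n = 13). KIT is also a marker of differentiating spermatogonia, and the other 6 tested spermatogonial markers, with the stem cell factor ZBTB16 and DMRT1 among them, did not pass, with a list median of 0.03. The whole list summed to 97.5 to 128 CPM in Duroc and 98.3 to 179 CPM in Landrace, with KIT included.

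Of 14 tested genes of Leydig cell androgen synthesis, 1 was higher in Duroc, none was lower, and the list's median log2 fold change was 0.00. The share of all tested genes was 2.88%, and 1 of 14 is near it. SRD5A2, the steroid 5-alpha-reductase that makes dihydrotestosterone from testosterone, ran from 1.79 over a median of 2.18 to 3.73 CPM in Duroc and from 0.628 over 1.3 to 1.78 CPM in Landrace. The breeds just failed to touch, between D9 at 1.79 and L7 at 1.78 CPM. Its log2 fold change was 0.99 ± 0.20 (SE, adjusted p = 0.00538), and against the Landrace boars labelled high alone it was 0.79 (adjusted p = 0.114). Its relative SRD5A1 had a log2 fold change of 0.67 ± 0.22 (SE) and did not pass (adjusted p = 0.107).

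The abundant enzymes of the pathway overlapped widely. CYP17A1, which opens the way to androgens, was at 1287 ± 634 CPM in Duroc (SD, n = 8) and 1218 ± 639 CPM in Landrace (SD, n = 13). STAR, which carries cholesterol into mitochondria, was at 441 ± 233 CPM and 378 ± 319 CPM. Leydig cell markers, 6 tested with none passing, summed to 1145 to 3454 CPM in Duroc and 462 to 4466 CPM in Landrace. None of 7 tested genes of androgen and estrogen conversion passed, with a median of 0.08.

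Of 18 tested genes of cholesterol synthesis and uptake, 1 was higher in Duroc and none lower, with a median log2 fold change of 0.10, against 2.88% of all tested genes. MVK, mevalonate kinase, an early enzyme of the pathway, ran from 5.98 over 11.5 to 16.1 CPM in Duroc and from 2.9 over 5.96 to 9.42 CPM in Landrace, with D2 and D3 inside the Landrace range. Its log2 fold change was 0.90 ± 0.22 (SE, adjusted p = 0.0242), and the call was lost without D5 (0.81, adjusted p = 0.0639) or D9 (0.82, adjusted p = 0.0625), against the Landrace boars labelled low alone (0.71, adjusted p = 0.0926) and against those with a day 0 label (0.88, adjusted p = 0.0753). Of 19 tested genes of glutathione use and detoxification, EPHX2 was the 1 that passed, and the median was 0.08.

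Of 18 tested genes of the CatSper calcium channel and other ion transport of hyperactivation, none was higher in Duroc and 1 was lower, with a median log2 fold change of 0.01, while 1.53% of all tested genes were lower. CATSPER3, a pore subunit of the channel, ran from 14.2 over 19.3 to 27.3 CPM in Duroc and from 20.1 over 30.9 to 37.7 CPM in Landrace. L7, L10 and L13, between 20.1 and 26.3 CPM, lay below the highest Duroc boar. The log2 fold change was −0.60 ± 0.13 (SE, adjusted p = 0.0102), and −0.55 (adjusted p = 0.106) against the Landrace boars labelled high alone. CATSPER2, another pore subunit, was at 173 ± 14.2 CPM in Duroc (SD, n = 8) and 196 ± 20.5 CPM in Landrace (SD, n = 13) and did not pass (adjusted p = 0.277).

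Of 16 tested genes of sperm energy metabolism, 1 was lower in Duroc, none was higher, and the median was −0.05, again beside 1.53% lower among all tested genes. ENO4, the enolase of the sperm flagellum, ran from 26.8 over a median of 39.1 to 50.1 CPM in Duroc and from 36.9 over 91.2 to 108 CPM in Landrace. Landrace boars split widely, since L3, L5 and L7 lay between 36.9 and 45.9 CPM, within the Duroc range, and the other 10 lay at 61.8 CPM or above. The log2 fold change was −1.06 ± 0.20 (SE, adjusted p = 0.00208). Lactate dehydrogenase LDHC, at 648 ± 129 CPM in Duroc and 760 ± 178 CPM in Landrace, and the sperm glycolysis enzyme GAPDHS, at 162 ± 55.7 and 159 ± 58.7 CPM, did not pass (SD, n = 8 and 13).

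Interferon-stimulated genes had 2 members higher in Duroc of 22 tested and none lower, with a median of 0.15, while 1.35% of all tested genes were higher. Neither call held in every fit with 1 library left out. OAS2, which senses double-stranded RNA, ran from 11.2 to 28.8 CPM in Duroc and from 7.29 to 14.4 CPM in Landrace (log2 fold change 0.72 ± 0.17, SE, adjusted p = 0.0152). Its highest library was D7, and without D7 the log2 fold change was 0.57 (adjusted p = 0.0508). Against the Landrace boars labelled high alone it was 0.63 (adjusted p = 0.182), and against those with a day 0 label 0.74 (adjusted p = 0.0663). MX2, an antiviral GTPase, stood close to the threshold, with a log2 fold change of 0.99 ± 0.27 (SE, adjusted p = 0.0457). The call for MX2 held in 7 of 21 fits with 1 library left out, and was lost without any of L1 to L5, L7 to L10, L12, D3, D4, D7 or D9 (adjusted p from 0.022 to 0.148 over the 21 fits). None of 7 tested genes of the major histocompatibility complex and antigen presentation passed, with a median of 0.56.

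Of the 12 tested Sertoli cell markers, 1 was higher in Duroc, beside 1.35% of all tested genes. GATA4, a transcription factor of gonadal support cells, ran from 16.2 over 24 to 28.1 CPM in Duroc and from 7.45 over 13.3 to 24.8 CPM in Landrace (log2 fold change 0.74 ± 0.16, SE, adjusted p = 0.00692). L3 stood highest in Landrace at 24.8 CPM, above D2, D3, D6 and D7, and the next Landrace boar was L2 at 16.7 CPM. The list's median was 0.03, and its members summed to 1016 to 2034 CPM in Duroc and 786 to 1877 CPM in Landrace. Against the 8 Landrace boars with a day 0 label, the log2 fold change of GATA4 was 0.70 (adjusted p = 0.0763). The member TF, at 1.08 ± 0.32 (SE), did not pass in the reported quasi-likelihood test (adjusted p = 0.0696). In the likelihood ratio test and in DESeq2, 2 Sertoli cell markers passed, both higher in Duroc.

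No member passed in the reported fit among the tested markers of spermatocytes (12 genes, median log2 fold change −0.06), spermatids (16, 0.04), peritubular myoid and smooth muscle cells (8, 0.22), endothelial cells (7, 0.43), macrophages (5, 0.14), lymphocytes (4, −0.34), red blood cells (2, −0.57) or epididymal epithelium (2, −0.31). The spermatocyte markers SPO11 (1.28), DMC1 (0.56) and SYCE1 (0.24) were higher in Duroc at an unadjusted p under 0.05. In the likelihood ratio test, in DESeq2 and with scaling by library size only, 1 spermatocyte marker passed, higher in Duroc. All 7 endothelial markers had positive log2 fold changes, and 4 of them had an unadjusted p under 0.05. Of all 13126 tested genes, 1612 had an unadjusted p under 0.05. The 8 endothelial markers matched to an identifier, with the untested ESAM, summed to 27.2 to 80 CPM in Duroc and 15.5 to 59.5 CPM in Landrace. PECAM1 was at 16.3 ± 5.91 and 12.1 ± 3.41 CPM (SD, n = 8 and 13). The part of vessel content in the breed differences was not tested. Handling genes of the immediate early and heat shock response (11 tested, median −0.07), mitochondrially encoded genes (13, −0.08) and the 1 tested beta-defensin (−0.31) did not pass either.

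**Figure D4:**
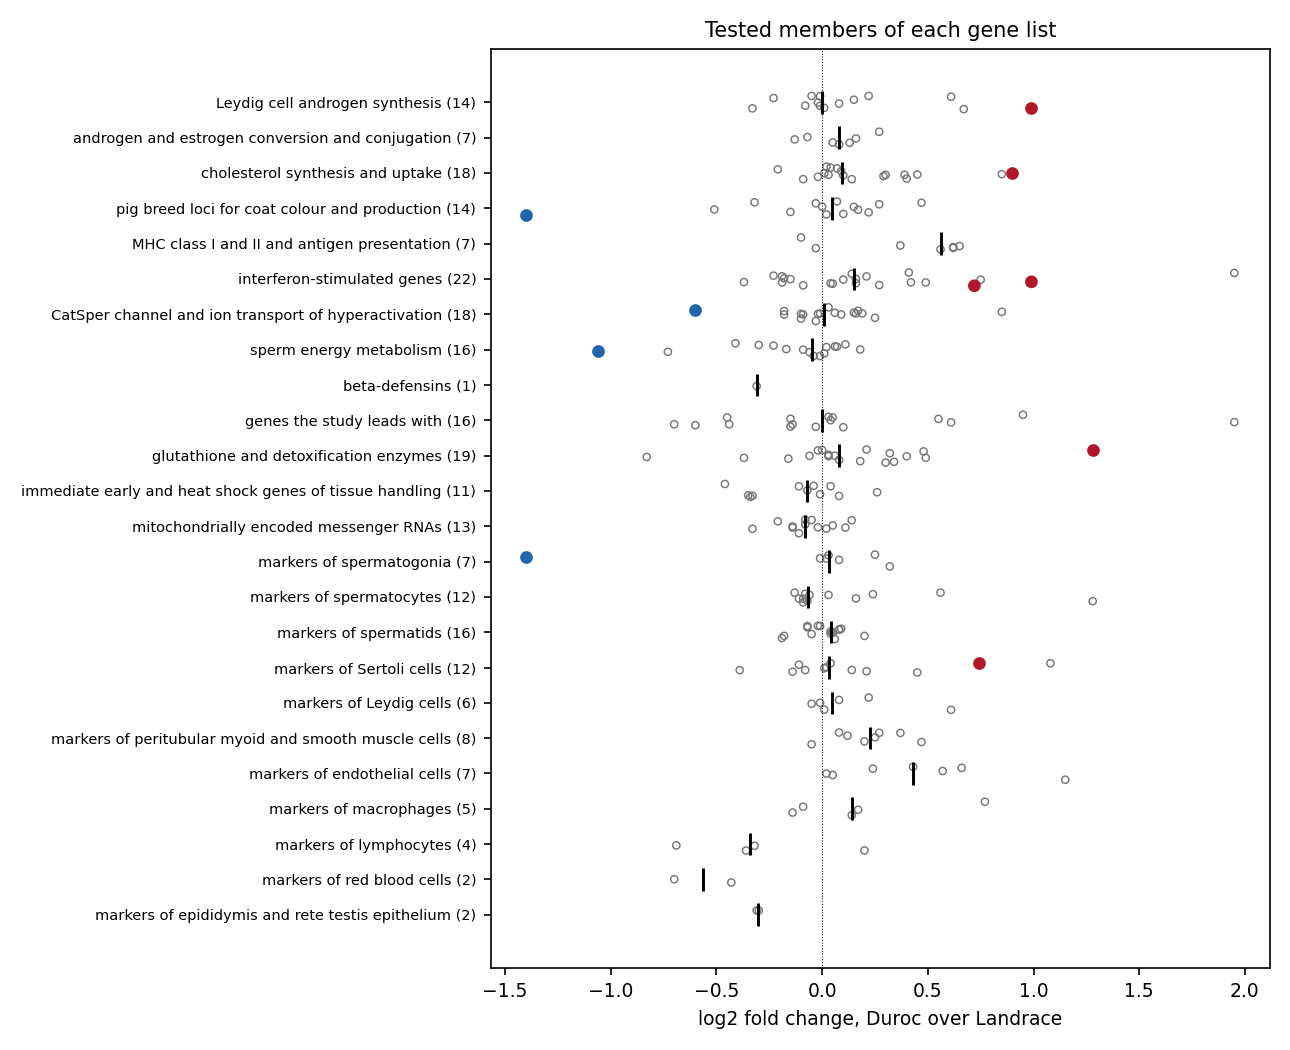
Log2 fold change, Duroc over Landrace, of each tested member of 24 gene lists, with the number tested in parentheses. Open circles are members that did not pass, filled red and blue circles are members that were higher or lower in Duroc at an adjusted p under 0.05, and a black bar marks the list's median. No list holds more than 2 filled circles, and KIT appears in both the breed loci and the spermatogonial markers.

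The genes reported for the hyperactivity contrasts had been chosen on these boars within a breed, so they are no independent evidence here. Of that list, 16 genes were tested and none differed between the breeds. CADPS, PRM3, TMEM225B and TNFSF10 were not paired with a tested identifier by the symbol table used and were not analysed here. The protamine gene PRM1 was at 1426 ± 470 CPM in Duroc (SD, n = 8) and 1375 ± 551 CPM in Landrace (SD, n = 13), with a log2 fold change of 0.05. ARFGAP1, SLC40A1, HIP1, FSCN3, NEU3, CHRDL2 and CFAP65 had log2 fold changes between −0.15 and 0.10. HMCN1, RAB27B, ADA and ADA2 had log2 fold changes of −0.44, −0.45, −0.60 and −0.70, and WNT5A and PLA2G2A of 0.61 and 0.95, with adjusted p between 0.17 and 0.715 in edgeR's quasi-likelihood test. Against the Landrace boars labelled low alone, ADA (−1.09, adjusted p = 0.0439), ADA2 (−1.08, 0.00682) and WNT5A (1.13, 0.0142) passed. CXCL10, a chemokine, had a log2 fold change of 1.95 ± 0.59 (SE, adjusted p = 0.0763). It rested on D7 at 19.7 CPM, since the next highest Duroc boar had 1.97 CPM and the value without D7 was 0.42 (adjusted p = 0.951), while without L13 it passed (2.22, adjusted p = 0.0341). CXCL10 also passed in the likelihood ratio test (1.96, adjusted p = 0.0177) and against the Landrace boars labelled low alone (2.78, adjusted p = 0.0397), and in DESeq2 the value was 0.36 (adjusted p = 0.958).

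DNLZ, a partner of the mitochondrial chaperone HSPA9, ran from 1.81 over 3.34 to 4.9 CPM in Duroc and from 0.331 over 2.49 to 5.02 CPM in Landrace (log2 fold change 0.55 ± 0.43, SE, adjusted p = 0.799). Landrace boars labelled low averaged 3.67 ± 1.11 CPM (SD, n = 7) and those labelled high 0.663 ± 0.235 CPM (SD, n = 6). Every Duroc boar, of either label, lay above every Landrace boar labelled high. The log2 fold change against those 6 boars alone was 2.34 (adjusted p = 0.00101). ARFGAP1 had the same order in Landrace, at 13.2 ± 3.41 CPM in boars labelled low and 4.46 ± 1.83 CPM in those labelled high, with Duroc boars spread from 3.4 to 15.8 CPM.

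A further 21 genes, described from here on, were chosen after their values were seen, outside the rule for named genes. Several large fold changes came from genes in which the breeds overlapped. OPN4, the light-sensing pigment melanopsin, was at 18.2 to 63.2 CPM in 5 Duroc boars and at 1.48 to 2.33 CPM in the other 3, D2, D4 and D5, which lay in the Landrace range of 1.05 to 5.87 CPM (log2 fold change 2.91 ± 0.50, SE, adjusted p = 0.00114). RNF150, a ring finger protein, ran from 6.82 to 24.1 CPM in Duroc and from 0.605 to 8.92 CPM in Landrace (log2 fold change 2.68). TACR1, the receptor of substance P, ran from 0.56 over 1.06 to 9.76 CPM in Duroc and from 7.2 over 20.3 to 34.6 CPM in Landrace, with D1 alone inside the Landrace range (log2 fold change −3.20 ± 0.48, SE, adjusted p = 2.64e-04). Without D1 the log2 fold change of TACR1 was −4.16.

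GFAP, an intermediate filament of glia, and NEUROD2, a neuronal transcription factor, differed by −3.85 and −2.78 on the log2 scale. Among Duroc boars only D1 reached 1 CPM for GFAP and only D9 for NEUROD2. Both genes thus met the filter of 1 CPM in 8 libraries through the Landrace boars, so their entry was not independent of the breed difference. GFAP varied widely in Landrace, with L3, L4 and L15 at 0.274 to 0.492 CPM and the other 10 boars between 4.07 and 16.3 CPM. In Duroc it ran from 0.0414 to 2.63 CPM, with D1 again the highest, and without D1 the log2 fold change of GFAP was −5.18. PIWIL3, of the PIWI family that binds germline small RNAs, ran from 4.11 over 11.9 to 24.1 CPM in Duroc and from 1.35 over 3.31 to 8.96 CPM in Landrace (log2 fold change 1.86 ± 0.32, SE, adjusted p = 0.00116).

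TLR3, which senses double-stranded RNA, was higher in Duroc by 1.66 on the log2 scale, the scavenger receptor MARCO by 2.31 and the inhibitory ligand CD274 by 1.52, while the costimulatory ligand CD80 was lower (−1.60). MARCO was at 5.07 to 7.65 CPM in D3, D5 and D6 and at 0.966 to 1.75 CPM in the other 5 Duroc boars, against 0.415 to 1.02 CPM in Landrace. Only L3 among the Landrace boars reached 1 CPM. MARCO therefore met the filter through the Duroc boars, as SLC5A7 did, and a gene that enters in this way had to differ. Summed macrophage markers were at 64.7 to 133 CPM in Duroc and 70 to 230 CPM in Landrace. The fat cell regulator PPARG was higher in Duroc (3.49 to 13.3 against 1.2 to 6.01 CPM, log2 fold change 1.60), and the fatty acid oxidation regulator PPARA was lower (0.524 to 2.3 against 1.23 to 4.31 CPM, −1.19).

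SPEF2 and CENPJ were abundant and higher in Duroc. SPEF2, required for flagellum assembly, ran from 234 over 337 to 480 CPM in Duroc and from 94.5 over 154 to 343 CPM in Landrace (log2 fold change 0.89 ± 0.19, SE, adjusted p = 0.0103). CENPJ, a protein of centriole growth, ran from 303 over 494 to 781 CPM in Duroc and from 175 over 307 to 343 CPM in Landrace (0.77 ± 0.14, SE, adjusted p = 0.0014). TTC29, which serves transport within the flagellum, was lower in Duroc, at 44 to 97.8 against 76.6 to 120 CPM (−0.51). Outside the flagellum, the insulin-degrading enzyme IDE ran from 124 to 254 CPM in Duroc and from 251 to 399 CPM in Landrace (−0.77), and the spliceosome protein SNRPB2 from 54.5 to 82.4 and from 66.5 to 293 CPM (−1.16). Against the Landrace boars labelled high alone, SPEF2 (adjusted p = 0.145), TTC29 (0.119) and PPARA (0.0686) did not pass, nor did PPARA against those with a day 0 label (0.0604).

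Genes that differed were spread over the chromosomes, and few were neighbours. Of tested genes with RefSeq coordinates on Sscrofa11.1, 6.17% differed on chromosome 8 (23 of 373), 4.57% on chromosome 15 (21 of 460), 4.02% on chromosome 13 (30 of 746) and 3.97% on chromosome 14 (28 of 706). The X chromosome was lowest among the nuclear chromosomes with over 1 tested gene, at 0.617% (2 of 324), and none of 13 mitochondrial genes differed. Chromosome 8 carries KIT, SLC4A4, RNF150, BST1 and TTC29 among the genes described above, with 11 of its 23 genes higher and 12 lower in Duroc. For comparison, 2.88% of all 13126 tested genes differed, and 10226 of the tested genes had coordinates. The chromosome shares are a description, without a test.

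No run of 4 or more neighbouring tested genes changed in 1 direction. The longest was 1 run of 3 genes on chromosome 13, 140638522 to 140730541, formed by the phospholipase PLA1A (−0.81), the hydrolase ADPRH (−0.56) and CD80 (−1.60), all lower in Duroc. PLA1A and ADPRH overlap in the RefSeq annotation, and the effect of that on their counts was not tested. Runs of 2 genes numbered 6. In one of them, MVK is followed on chromosome 14 by MMAB, with ends at 41357437 and 41371374, and MMAB encodes the enzyme that makes adenosylcobalamin. It ran from 8.41 over 9.71 to 19.7 CPM in Duroc and from 4.75 over 6.99 to 9.01 CPM in Landrace (log2 fold change 0.74 ± 0.15, SE, adjusted p = 0.00574). MMUT, the methylmalonyl-CoA mutase that uses this cofactor, was lower in Duroc, from 70 to 99.7 against 91.6 to 165 CPM (−0.59, adjusted p = 0.00208). Against the Landrace boars labelled high alone, MMAB (adjusted p = 0.0732), PLA1A (0.0842) and ADPRH (0.195) did not pass, and against those with a day 0 label MMUT (0.0533), MMAB (0.0701) and ADPRH (0.0778) did not.

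**Figure D5:**
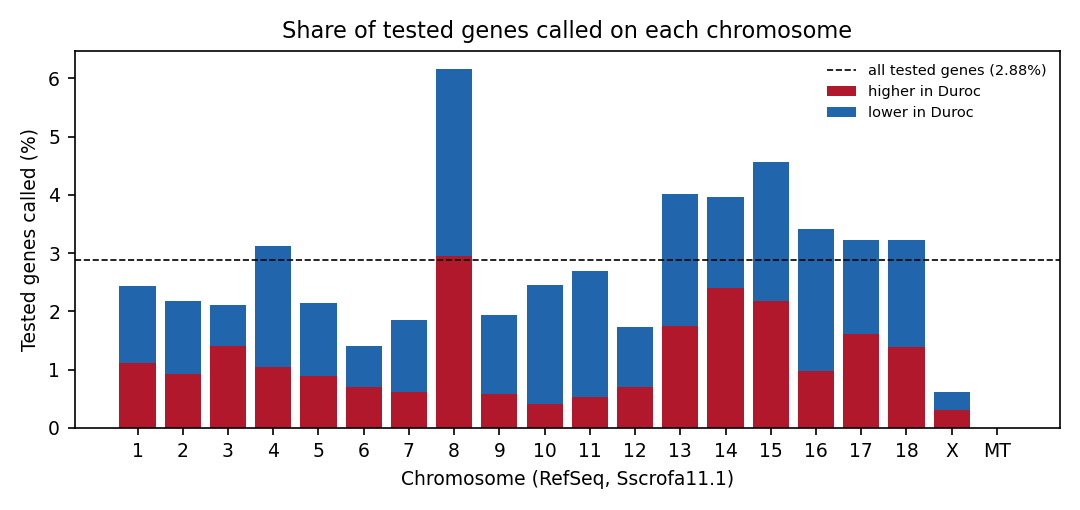
Percentage of tested genes that differed between the breeds on each chromosome (bars from 0), divided into genes higher (red) and lower (blue) in Duroc. The dashed line is the 2.88% of all tested genes, chromosome 8 is the highest at 6.17%, and the X chromosome is at 0.617%.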

How the data were processed

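RNA from testis of 21 boars was sequenced by the authors as single reads of 100 bases from a stranded mRNA library kit, over 2 lanes per sample. The authors trimmed reads with Trimmomatic 0.36, mapped them to Sscrofa11.1 with STAR, and used HTSeq with the reverse stranded option and Ensembl gene models. Each deposited file holds raw counts per gene for 1 boar, 25880 genes in all, followed by 5 tally lines, which were removed here.

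The test was the quasi-likelihood F test of edgeR 4.0.16 (R 4.3.3, TMM scaling, Benjamini-Hochberg adjustment, threshold 0.05), with limma 3.58.1 for scaling plots and DESeq2 1.42.0 as an alternative. A gene entered when 8 or more libraries reached 1 CPM, and the model held breed alone. The study fitted the breeds separately and did not test them against each other. Standard errors were derived from the log2 fold change and the F statistic. Scaling took the 500 genes that differed most between pairs of libraries, with a prior count of 2. Library measures were compared by two-sided exact permutation tests. On simulated data for this comparison (13126 genes, 200 changed by 1.5- to 8-fold), 166 changed genes and 12 unchanged genes were called. Within a breed, log counts of 2 boars had a Pearson's r of 0.918 to 0.985 and a chi-square of 49.7 to 800 per degree of freedom, so no library was a copy of another.

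Symbols matched 14855 identifiers, and 10226 tested genes had RefSeq coordinates. Named genes were, among those that passed without overlap and averaged at least 1 CPM, the 10 that rose most and the 10 that fell most, the 5 smallest p in each direction, up to 4 passing members of each list with others needed to describe it, the genes the study leads with, and genes counted in 1 breed only. Members and lists were chosen with earlier results of these data known. A result for 1 list member is not reported here. The alternatives were other tests, scalings, filters, subsets of Landrace boars, added terms, a replicate block, and leaving out each library in turn.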

Additional observations from a re-analysis of the deposited data

Results flagged for a closer look

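Among the 8 Duroc boars, 69 measures (the genes named above, library depth and both scaling coordinates) were examined for a boar whose gap to its nearest neighbour was large for the breed's range by Dixon's criterion. Chance marks about 1 in 20 such groups, or 3.45 of 69, and 6 were marked. All 6 were single high boars. SLC5A7 was at 34.4 CPM in D3, with the next boar at 15.1 CPM. CXCL10 was at 19.7 CPM in D7, with the next at 1.97 CPM. In D1, TACR1 was at 9.76 CPM and GFAP at 2.63 CPM, with the next boars at 2 and 0.423 CPM. In D9, NEUROD2 was at 1.41 CPM and MMAB at 19.7 CPM, with the next boars at 0.664 and 13.7 CPM. The Landrace group is too large for this criterion and was not examined.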

How the results depend on the processing

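The 378 genes that differed ranged from 277 to 494 when 1 library was left out, from the fit without D4 to the fit without L13, and the breed difference in scaling coordinate ranged from 0.94 to 1.29. Over the remaining alternatives, the count stayed within 1.5 times the reported one for the likelihood ratio test (534), DESeq2 (562), other scalings (377 and 411), other filters (291 to 554), the robust fit, the hyperactivity label as a term (423) and without mitochondrial genes (373). Without a CPM filter, 53.8% of the calls were higher in Duroc, against 46.8% in the reported fit. It moved further with the Landrace boars restricted to those labelled low (692), labelled high (209) or given a day 0 label (218), which also changes the number of boars. A log2 fold change of at least 1 as a further condition left 133. With dimension 1 of the scaling as a term, chosen after seeing the data and estimated from the same counts, 2561 genes were called, 60.9% of them higher in Duroc, and the cause was not tested. Scaling on all tested genes put the widest breed difference, 0.27, on dimension 3, with overlapping breeds (exact permutation p = 9.83e-06). In every scaling alternative the dimension was chosen for its breed difference, so these p-values are too small.

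Boar numbers are shared by 8 boars of each breed. Their deviations correlated above 0.1 in 3 of 8 pairs, and 0 Duroc libraries correlated best with their own number, so the numbers only name boars. A replicate block over those 16 libraries gave 162 genes. With at most 0 counts in the other breed, 0 genes were counted in 1 breed only, and with at most 10 counts, 3 were. Of 50 genes named above that passed, 31 passed in every one of 15 alternatives that could test them and 47 in every fit without 1 library, with MVK, OAS2 and MX2 as the exceptions, and no sign reversed. In the simulation of this comparison, 28 of 50 genes changed 1.5-fold and 38 of 50 changed 2-fold were called, so many differences of that size would not be detected.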
